A study of Homo sapiens with 58 samples.

Results

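The comparison sets 6 RNA-seq libraries from 210, 240 and 270 min of a time course of presomitic mesoderm against 6 libraries from 120, 150 and 180 min. The 12 libraries were chosen by the time in their labels, out of 58 in the series, and each time has 2 replicates. All of them come from H1, an established wild-type human embryonic stem cell line, at passage 30 to 40. In the stated protocol H1 cells first became mesendoderm, over 24 h in activin A (100 ng/mL) and CHIR99021 (3 µM), which activates Wnt signalling. Another 24 h in CHIR99021 (3 µM), FGF2 (100 ng/mL), NOGGIN (100 ng/mL, which blocks BMP) and A83-01 (2 µM, which blocks the receptors for activin and nodal) made presomitic mesoderm. For somites the medium held PD0325901 (1 µM, which blocks MEK), IWR1 (2.5 µM, which blocks tankyrase and so Wnt signalling), A83-01 (2 µM) and NOGGIN (100 ng/mL). The labels give neither the medium of the course nor the event at its zero time. They do not say that replicates came from separate cultures, so all p-values rest on variation among libraries, possibly technical, in 1 cell line. The main gene tests used the spread between the 2 replicates of a time, pooled over 46 course libraries of 23 times. Variation among the times of a window did not enter that spread.

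Presomitic mesoderm is the unsegmented tissue beside the neural tube from which somites, the blocks that later form vertebrae and skeletal muscle, are cut off at regular intervals. In this tissue a segmentation clock runs on the Notch pathway: a ligand on a neighbouring cell releases the intracellular part of the Notch receptor, which joins the DNA-binding protein RBPJ and switches on repressors of the HES and HEY families. Wnt and FGF signals are high at the tail end and hold cells immature, and where they fade MESP2 and RIPPLY genes mark the next segment border. The question the 2 windows address is which of these genes moved from the earlier to the later times.

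Total expected counts were 2.99 to 3.77 M in the 120-180 min libraries and 3.17 to 4.69 M in the 210-270 min libraries. Levels are given as CPM, which are counts scaled to the library total after TMM normalization. Where a gene had no count in a library, a level of up to 3 counts, or 0.644 to 1.02 CPM, is still possible from counting error. All 24 markers of presomitic mesoderm were detected in both windows, and 19 had a mean of at least 5 CPM at 210-270 min. Some markers of other cell types were detected too, mostly at low levels. At 210-270 min 12 of 15 definitive endoderm genes had a count, and 3 had a mean of at least 5 CPM. For sclerotome and myotome genes these numbers were 12 and 4 of 14. Among the members at 0 in all 12 libraries were SOX17, MYOD1 and MYOG. The library of 180 min replicate 1 stood apart for some genes. In it 23 genes were at least 2-fold above each of the other 5 libraries of its window, against 0 to 4 genes in each of the other 11 libraries. The gene REXO1L1, for example, was at 379 CPM there and at 27.9 to 52.7 CPM in the other 5. The counts of calls over all genes are given with and without it.

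Promoters from RefSeq (build GRCh38.p14, while the reads were placed on hg19) are shown for 4 of the called genes. They are the Notch targets HEYL and NRARP, which rose, and the transcription factor T and the FGF feedback inhibitor IL17RD, which fell. The promoters used had no entry for DUSP5, MEOX1, TCF15, DLL1 and HEY1. Each runs from 250 bases before the transcript start to 50 after it, 5′ to 3′ on the gene's strand, and capitals mark a match to a searched motif on either strand.
HEYL (chr1:39639594-39639893, minus strand): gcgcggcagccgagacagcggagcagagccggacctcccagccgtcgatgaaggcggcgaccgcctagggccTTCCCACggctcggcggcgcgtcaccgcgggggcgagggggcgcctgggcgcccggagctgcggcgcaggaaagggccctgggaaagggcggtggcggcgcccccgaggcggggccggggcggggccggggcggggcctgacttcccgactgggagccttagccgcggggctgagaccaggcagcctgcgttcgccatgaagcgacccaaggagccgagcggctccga
NRARP (chr9:137302222-137302521, minus strand): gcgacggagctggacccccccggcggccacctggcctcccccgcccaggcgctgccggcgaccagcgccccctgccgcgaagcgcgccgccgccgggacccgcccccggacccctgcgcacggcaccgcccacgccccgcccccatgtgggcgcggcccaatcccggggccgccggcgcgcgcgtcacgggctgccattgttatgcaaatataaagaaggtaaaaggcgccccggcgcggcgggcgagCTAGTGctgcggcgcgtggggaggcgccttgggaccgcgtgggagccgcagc
T (chr6:166168606-166168905, minus strand): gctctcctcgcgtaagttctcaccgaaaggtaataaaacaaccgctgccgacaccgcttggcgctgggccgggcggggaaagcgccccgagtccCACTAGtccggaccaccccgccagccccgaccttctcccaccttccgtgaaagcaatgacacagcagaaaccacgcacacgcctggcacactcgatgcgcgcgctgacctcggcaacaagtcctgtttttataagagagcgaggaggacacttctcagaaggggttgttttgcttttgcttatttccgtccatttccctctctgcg
IL17RD (chr3:57170268-57170567, minus strand): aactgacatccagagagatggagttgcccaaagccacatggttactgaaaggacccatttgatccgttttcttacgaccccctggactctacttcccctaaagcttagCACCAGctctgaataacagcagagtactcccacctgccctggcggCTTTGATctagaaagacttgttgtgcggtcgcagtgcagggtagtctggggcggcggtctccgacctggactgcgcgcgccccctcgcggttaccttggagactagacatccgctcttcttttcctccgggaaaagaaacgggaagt

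The HEYL promoter held GTGGGAA, the core of the RBPJ site, on the opposite strand, 178 bases before the start. NRARP, T and IL17RD held CACNAG, the N-box bound by HES proteins, at 2, 156 and 142 bases before the start, and IL17RD also held ATCAAAG, the TCF/LEF core of Wnt targets. No match to the other motifs searched was found in these windows. Promoters were matched for 92 of the 123 genes called higher, 26 of the 38 called lower and 11169 of the 13653 tested. GTGGGAA was in 2.17% of the higher, 7.69% of the lower and 5.77% of all tested genes' promoters, and in 6.28% of all promoters in the table. CACNAG was in 33.7%, 50% and 34.3%, and in 38.0% of the table. ATCAAAG was in 2.17%, 3.85% and 1.44%, and in 2.64% of the table. The E-box CACGTG was in 6.52%, 23.1% and 10%, and in 7.43% of the table, and the serum response element in 0%, 0% and 0.0627%, and in 0.0366% of the table. The cAMP response element TGACGTCA was in 2.17%, 0% and 3.24%, and in 1.98% of the table, and the AP-1 site TGACTCA in 3.26%, 0% and 2.9%, and in 4.92%. All 7 motifs were searched on both strands. These shares describe letters in a window and were not tested.

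More genes were called higher than lower between the windows. Of 13653 genes tested, 161 were called (1.18%) by edgeR's quasi-likelihood test at an adjusted p under 0.05, with 123 higher (0.901%) and 38 lower (0.278%). At least 2-fold were 34 of the higher and 14 of the lower genes. The median log2 fold change was 0.72 among the higher, -0.86 among the lower and -0.0017 over all genes tested. The 6 later libraries all lay above the 6 earlier ones for 49 of the higher genes, and all below for 21 of the lower genes, against 0.703% and 0.337% of all genes tested. The direction was the same at all 3 matched times (210 against 120, 240 against 150 and 270 against 180 min) for 116 higher and 36 lower genes. The calls came from these same libraries, so the counts without overlap and at matched times describe the called genes and do not test them. Without 180 min replicate 1, 88 genes were called higher and 26 lower. Of 62 called genes that are named by rule here, 30 kept the call in all 28 other settings. For most of the others described here the settings that end the call are given beside the gene, or their number and the highest adjusted p.

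**Figure D1:**
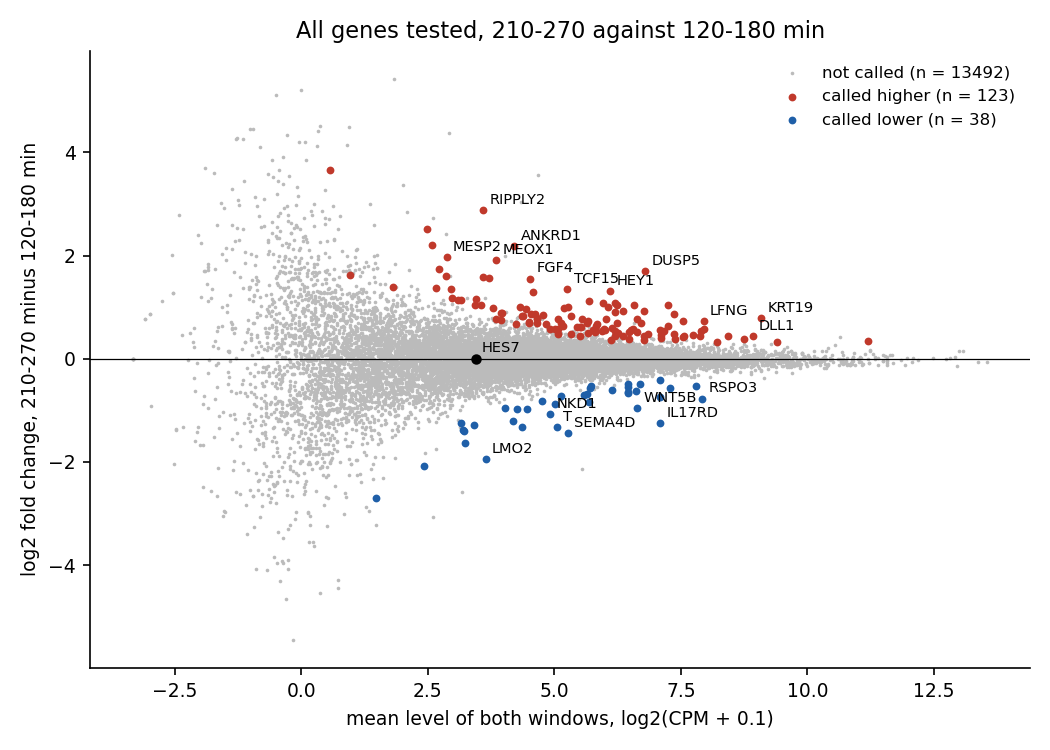
The log2 fold change of each of 13653 genes (210-270 minus 120-180 min) is plotted against its mean level in both windows, as log2(CPM + 0.1). Red points are the 123 genes called higher, blue points the 38 called lower, grey points genes not called, and the black point is HES7, which lies on the zero line.

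HES7, the clock repressor named in the title of the series, had the same mean level in both windows. It was 8.78, 10.9 and 13.9 CPM (lowest, median and highest of 6 libraries) at 120-180 min and 8.03, 11.4 and 13.3 CPM at 210-270 min. The ranges overlapped almost fully, and the log2 fold change was 0.0009 (SE 0.35). By time the means were 12.4, 10 and 9.94 CPM at 120, 150 and 180 min, and 12.6, 9.82 and 10.1 CPM at 210, 240 and 270 min. The 2 libraries of 240 min alone were at 11.6 and 8.03 CPM. HES1, a related repressor, was at 12.7 ± 5.05 and 12.9 ± 5.65 CPM (SD, n = 6; log2 0.03, SE 0.38). HES6, which binds HES1 and lifts its repression, had a log2 fold change of -0.74 (adjusted p = 0.433).

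Several genes of the segment border rose. Of 10 tested members of this list 5 were higher (MESP2, RIPPLY2, PCDH8, SNAI2 and LFNG) and 0 lower, beside 0.901% higher and 0.278% lower of all genes, with a median log2 fold change of 0.55. RIPPLY2, a repressor that ends MESP2 and TBX6 activity at the border, was 0.976, 2.14 and 7.38 CPM (lowest, median, highest) in the earlier window and 11.2, 18.9 and 33.4 CPM in the later. The windows did not overlap, and its log2 fold change of 2.87 (SE 0.22, adjusted p = 2.17e-13) was the largest among called genes with a mean of at least 5 CPM. Its means rose at every later time, from 7.06 CPM at 180 min through 11.5 and 18.9 to 30.9 CPM at 270 min. MESP2, the transcription factor that places the border, went from 0.323, 3.18 and 11.2 CPM to 5.5, 9.43 and 18.6 CPM. Its windows overlapped because of the 11.2 CPM in 180 min replicate 1, where the other 5 early libraries were at 0.323 to 3.86 CPM. MESP2 was called (log2 1.97, SE 0.33, adjusted p = 0.000142), and lost the call when the 12 libraries were fitted alone with 1 coefficient per window (adjusted p = 0.214) and without both 120 min libraries (adjusted p = 0.212).

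PCDH8, a protocadherin of the border that weakens adhesion, went from 26.5, 45.5 and 62.2 CPM to 67.5, 88.5 and 122 CPM. The windows did not overlap (log2 1.01, SE 0.13, adjusted p = 6.12e-07). SNAI2, a repressor of epithelial cadherins, went from 68.3, 97.6 and 130 CPM to 155, 196 and 271 CPM, again without overlap (log2 1.05, SE 0.11, adjusted p = 1.77e-09). Its relative SNAI1 did not pass the test, at 20.3 and 15.5 CPM (adjusted p = 0.812). The MESP2 relative MESP1 had means of 0.738 and 0.71 CPM, near the level of 3 counts. The RIPPLY2 relative RIPPLY1 had means of 0.63 and 0.688 CPM in the 2 windows and reached 14.3 CPM at 300-360 min. Leaving out 180 min replicate 1 left the 5 calls of this list, and leaving out both 120 min libraries left 4.

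Some Notch pathway genes rose, among them ligands, a modifier and targets. Of 28 tested members 7 were higher and 0 lower, against 0.901% of all genes higher, with a list median of 0.11 on the log2 scale. Of the ligands, JAG1 went from 40.4, 51.8 and 77.6 CPM to 95.2, 105 and 120 CPM, without overlap (log2 0.93, SE 0.10, adjusted p = 2.66e-08). DLL1, the main ligand of the tissue, rose less, from 310, 408 and 505 CPM to 494, 555 and 614 CPM, with a small overlap (log2 0.45, SE 0.08, adjusted p = 0.000687). Its call was lost in the fit of 12 libraries with 1 coefficient per window (adjusted p = 0.0522) and without both 120 min libraries (adjusted p = 0.182). DLL3, a divergent ligand that acts inside the cell, was at 270 and 279 CPM (adjusted p = 0.924).

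LFNG, the sugar transferase that tunes Notch to its ligands and cycles with the clock in many vertebrates, went from 125, 180 and 247 CPM to 235, 325 and 364 CPM. The ranges overlapped between 235 and 247 CPM (log2 0.73, SE 0.12, adjusted p = 5.72e-05). The receptor NOTCH1 was at 148 and 187 CPM (log2 0.38, adjusted p = 0.0389). Its call was lost in 18 of 28 other settings, among them leaving out any of 9 single libraries, with an adjusted p of up to 0.799. These values put the ligand JAG1 and the modifier LFNG among the clearer changes, while the receptor's call was not stable.

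Of the targets, HEY1 went from 21.7, 44.0 and 57.4 CPM to 88.2, 92.4 and 119 CPM. The windows did not overlap (log2 1.31, SE 0.12, adjusted p = 2.26e-10), and the call held in all 28 settings. HEYL, whose promoter is shown above, went from 52.3, 67.9 and 116 CPM to 116, 141 and 171 CPM (log2 0.92, SE 0.12, adjusted p = 3.47e-07). Its highest early and lowest late libraries met at 116 CPM. NRARP, a target that in turn lowers Notch signalling, went from 27.8, 45.3 and 68.2 CPM to 50.9, 64.6 and 93.5 CPM, with overlap (log2 0.64, SE 0.13, adjusted p = 0.00151). Its call was lost in the fit of 12 libraries with 1 coefficient per window (adjusted p = 0.125) and without both libraries of 120 min (adjusted p = 0.342) or 270 min (adjusted p = 0.186). HES4 and HES5 had a mean under 1.5 CPM in both windows.

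**Figure D2:**
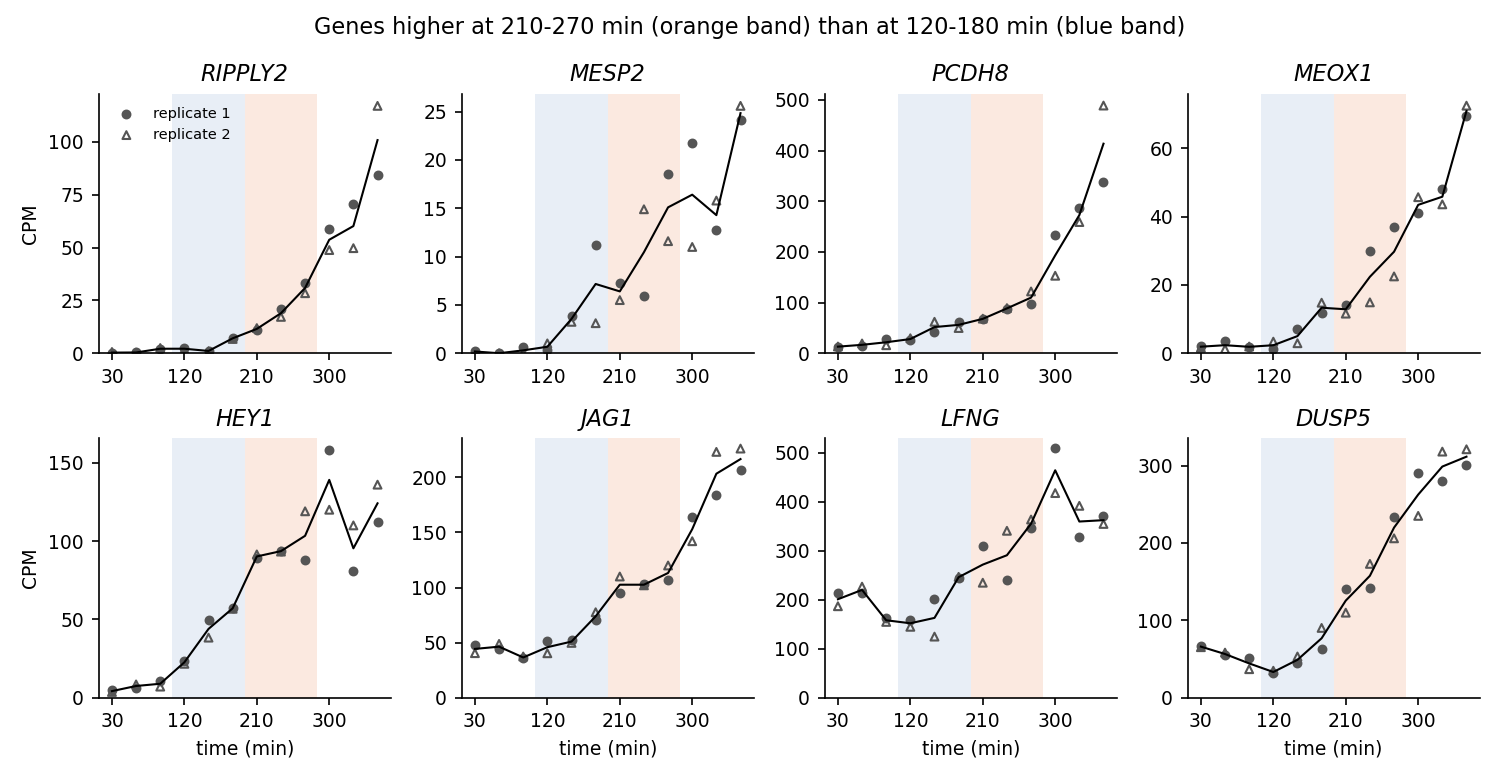
CPM of 8 genes is plotted against time from 30 to 360 min, with filled circles for replicate 1, open triangles for replicate 2 and a line through the means of 2 libraries. The blue band is 120-180 min and the orange band 210-270 min, and in RIPPLY2, PCDH8, HEY1, JAG1 and DUSP5 no library of the orange band lies as low as the blue band.

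Some genes of the somite rose, several of them from low levels. Of 18 tested members 5 were higher, among them MEOX1, TCF15, FOXC1 and FOXC2, and CDH11 was lower, beside 0.901% higher and 0.278% lower of all genes, with a list median of 0.33. MEOX1, a homeobox gene of the young somite, went from 1.29, 5.26 and 14.8 CPM to 11.6, 18.7 and 37.0 CPM (log2 1.91, SE 0.21, adjusted p = 8.83e-09). TCF15, a helix-loop-helix factor for somite epithelium, went from 8.49, 18.8 and 40.7 CPM to 36.5, 51.7 and 69.3 CPM (log2 1.36, SE 0.17, adjusted p = 2.57e-07). Both overlapped between the windows because their 180 min libraries were already near the 210 min ones, at means of 13.3 and 12.9 CPM for MEOX1 and 40.7 and 39.6 CPM for TCF15.

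The forkhead gene FOXC1 went from 98.2, 111 and 167 CPM to 135, 194 and 211 CPM (log2 0.63, SE 0.12, adjusted p = 0.00106). Its partner FOXC2 went from 3.88 to 10.5 CPM in the medians (log2 1.17, adjusted p = 0.000795), and lost the call in the fit of 12 libraries with 1 coefficient per window, without the 120 min libraries and as a linear trend (adjusted p = 0.161, 0.0903 and 0.156). CDH11, a mesenchymal cadherin, was at 263 ± 69.0 and 181 ± 42.1 CPM (SD, n = 6; log2 -0.53, adjusted p = 0.000464), and lost the call in 3 settings (adjusted p of up to 0.321). PAX3, a marker of the dermomyotome, was at 11.3 and 8.44 CPM and did not pass (adjusted p = 0.747). In bulk RNA, more cells of a type and more RNA of a gene per cell cannot be told apart, which holds for every gene here.

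The summed levels of 2 other marker lists, which share SOX9, were higher in the later window. The summed CPM of sclerotome and myotome markers was 107 to 132 at 120-180 min and 132 to 213 at 210-270 min (exact permutation test, 2-sided, 6 against 6 libraries, p = 0.00216, 0.0184 adjusted over 17 library measures). This p-value is the smallest that 6 against 6 libraries allow. The test takes the 2 replicates of a time as independent units, while each window holds 3 times, so its p-values may be too small. The summed CPM of neural crest markers was 91.6 to 124 and 123 to 163 (exact permutation p = 0.00433, adjusted 0.0245). SOX9, a cartilage and neural crest regulator on both lists, was the called member of each, 1 of 9 and 1 of 7 tested. Sums without SOX9 were added after the data were seen, and their p-values are not adjusted. Without SOX9 the sclerotome and myotome sum was 94.7 to 118 and 104 to 181 CPM (exact permutation p = 0.0108). The neural crest sum without it was 78.6 to 107 and 90.2 to 122 CPM and did not pass (exact permutation p = 0.0952). SOX9 itself went from 9.76, 14.3 and 16.1 CPM to 27.1, 32.4 and 45.1 CPM, without overlap (log2 1.30, SE 0.17, adjusted p = 1.36e-06). Of the sclerotome and myotome markers ACTC1 had the highest mean level over the 12 libraries. Whether cells of these types were present, and any part of them in the changes of other genes, was not tested.

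Some genes of the tail-end, immature state fell. Of 23 tested presomitic genes 4 were lower (T, RSPO3, WNT5B and CDX2), while DLL1 and LFNG were higher, beside 0.278% lower and 0.901% higher of all genes, and the list median was -0.35. T (brachyury), a T-box factor of the primitive streak and tail bud, went from 35.6, 44.6 and 71.4 CPM to 14.1, 18.8 and 22.3 CPM. The windows did not overlap (log2 -1.33, SE 0.19, adjusted p = 3.31e-06). RSPO3, a secreted booster of Wnt signalling, went from 239, 277 and 439 CPM to 147, 167 and 227 CPM, without overlap (log2 -0.77, SE 0.09, adjusted p = 1.18e-07). WNT5B, a ligand of the non-canonical branch, went from 94.3, 129 and 180 CPM to 46.2, 72.8 and 80.6 CPM, also without overlap (log2 -0.95, SE 0.17, adjusted p = 0.000253). Its call was lost in limma on log2(TPM + 1) and log2(TPM + 0.1) (adjusted p = 0.0646 and 0.239).

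CDX2, a posterior homeobox gene, went from 25.8 to 10.5 CPM in the means (log2 -1.21, SE 0.29, adjusted p = 0.0148). It lost the call in 11 of 28 settings, among them leaving out 5 single libraries in turn, with an adjusted p of up to 0.385. The core presomitic factors TBX6 and MSGN1 did not pass the test. TBX6 was at 41.1 ± 18.5 and 31.2 ± 8.79 CPM (adjusted p = 0.86), and MSGN1 at 19 and 10.7 CPM (log2 -0.85, adjusted p = 0.258). The retinoid-degrading enzyme CYP26A1 was at 6.45 and 3.57 CPM (adjusted p = 0.768).

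Wnt targets and feedback genes were mixed. Of 21 tested members AXIN2 and TNFRSF19 were higher and NKD1, DKK1 and FZD7 lower, beside 0.901% higher and 0.278% lower of all genes, with a list median of -0.30. NKD1, a feedback inhibitor inside the cell, went from 31.2, 39.2 and 57.2 CPM to 10.9, 19.8 and 26.6 CPM, without overlap (log2 -1.07, SE 0.18, adjusted p = 0.000186). DKK1, a secreted inhibitor, went from 15.6 to 5.53 CPM in the means (log2 -1.28, adjusted p = 0.000556). Most of its loss came earlier, since it was at 145 CPM at 30-90 min, and the call was lost without 180 min replicate 2 (adjusted p = 0.0687) and without the 120 min libraries (adjusted p = 0.169). The receptor FZD7, which lies outside the naming rule and was picked after its values were seen, went from 42.7 ± 18 to 21.9 ± 7.97 CPM (log2 -0.89, adjusted p = 0.012). Its call was lost without 180 min replicate 1 (adjusted p = 0.0574) and in 10 of the other 27 settings, 4 of which left out another single library. The highest adjusted p was 0.553, without both 120 min libraries.

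Of the rising members, TNFRSF19, a membrane receptor, went from 37.2, 49.0 and 53.4 CPM to 63.4, 84.3 and 96.3 CPM, without overlap (log2 0.78, SE 0.13, adjusted p = 0.000187). AXIN2, the classic negative feedback target, went from 52.0 to 75.5 CPM in the means (log2 0.55, SE 0.13, adjusted p = 0.011). Its call was lost in 9 of 28 settings, among them leaving out 120 min replicate 1, 150 min replicate 1, 180 min replicate 2 or 240 min replicate 1, with an adjusted p of up to 0.171. NKD1 and DKK1 were thus called lower and AXIN2 higher. The AXIN2 call was not stable, and that of DKK1 was lost in 2 settings. SP5 (13.3 and 6.89 CPM, adjusted p = 0.693) and LEF1 (106 and 100 CPM, adjusted p = 0.923) passed in neither direction.

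Within the FGF-ERK list the called genes were DUSP5, which rose, and IL17RD, which fell, out of 20 tested, beside 0.901% higher and 0.278% lower of all genes. DUSP5, a nuclear phosphatase that inactivates ERK, went from 31.7, 49.1 and 90.3 CPM to 110, 158 and 234 CPM. The windows did not overlap (log2 1.70, SE 0.12), and its adjusted p of 4.51e-14 was the smallest of all genes tested. Its time means rose without a break from 33.3 CPM at 120 min through 49.1, 76.9, 126 and 158 to 220 CPM at 270 min. IL17RD (Sef), a membrane inhibitor of FGF signalling, went from 130, 185 and 247 CPM to 46.2, 86.5 and 99.3 CPM, without overlap (log2 -1.24, SE 0.12, adjusted p = 3.11e-10). DUSP6 and SPRY4 had dropped before 120 min. DUSP6, the cytoplasmic ERK phosphatase, was at 205 CPM at 30-90 min and at 13.3 and 11.9 CPM in the 2 windows (adjusted p = 0.934). SPRY4, an inhibitor upstream of RAS, was at 70.7 CPM and then at 3.27 and 1.51 CPM (adjusted p = 0.768). SPRY2, a relative of SPRY4, was at 18.6 and 15.2 CPM (adjusted p = 0.882) and at 5.02 CPM at 300-360 min. By unadjusted p-values under 0.05, 3 members of the list were higher and 6 lower, beside 1198 of all 13653 genes in either direction.

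The FGF ligands FGF4 and FGF18, which are not on that list, rose. FGF4 went from 6.79, 12.9 and 20.2 CPM to 27.3, 33.6 and 39.6 CPM, without overlap (log2 1.55, SE 0.21, adjusted p = 1.17e-06). FGF18 went from 3.9, 5.59 and 11.9 CPM to 9.84, 19.9 and 26.4 CPM (log2 1.57, SE 0.20, adjusted p = 7.08e-07). FGF4 counts in the mesendoderm list, where T was lower and APLNR, a receptor of migrating mesoderm, was at 596 and 752 CPM (log2 0.33, adjusted p = 0.0427). The APLNR call was lost in 19 of 28 settings, among them leaving out any of 9 single libraries, with an adjusted p of up to 0.5.

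**Figure D3:**
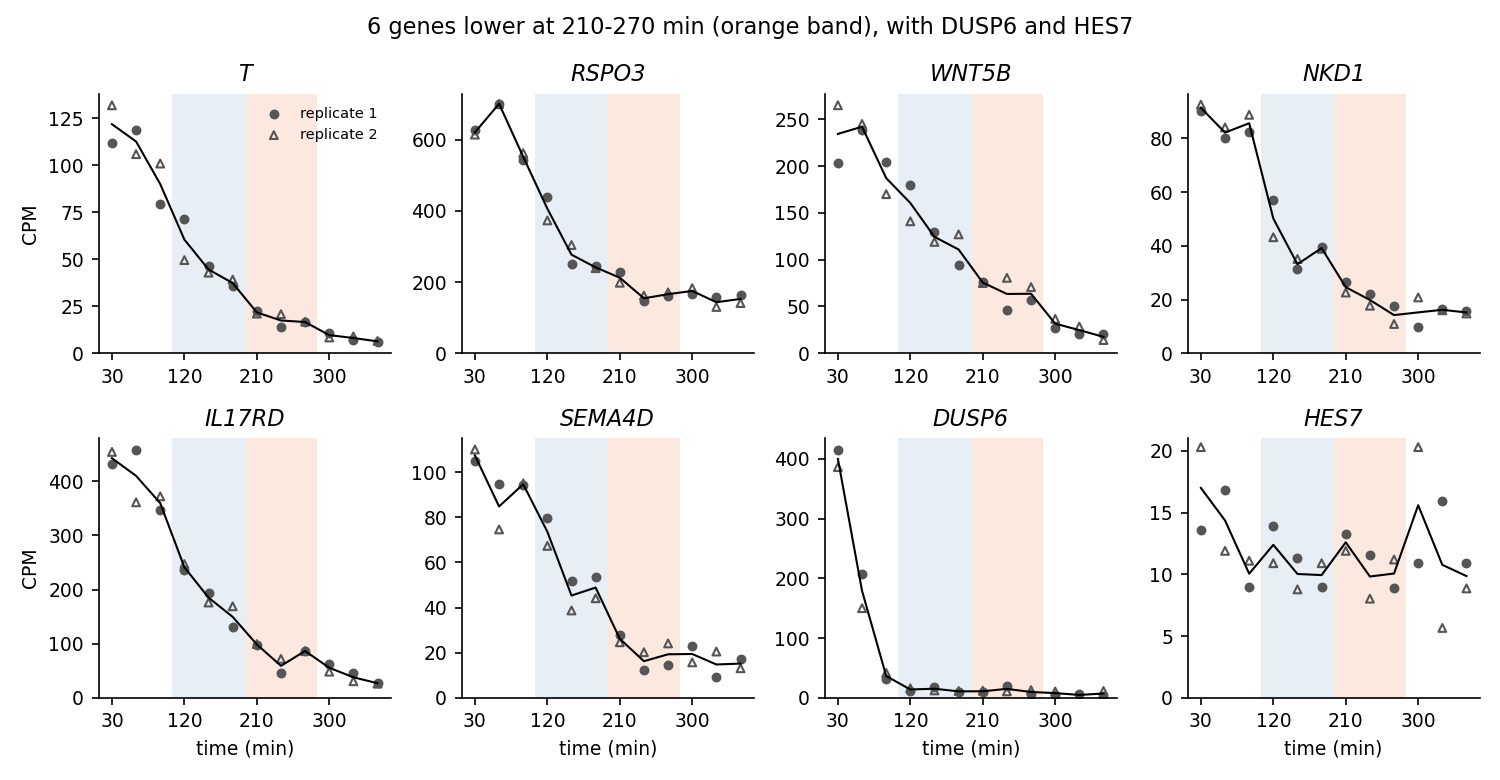
CPM of 6 genes that fell (T, RSPO3, WNT5B, NKD1, IL17RD and SEMA4D) and of DUSP6 and HES7 is plotted against time from 30 to 360 min, with circles and triangles for the 2 replicates and a line through their means. DUSP6 drops before the blue band (120-180 min), whereas the 6 falling genes go on dropping into the orange band (210-270 min) and HES7 has a mean of 10.8 CPM in both.

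Stress and growth-factor response genes rose in part. Of 27 tested immediate early genes 5 were higher (IER5, ATF3, KLF6, CYR61 and CTGF) and 0 lower, beside 0.901% and 0.278% of all genes. FOS and EGR1, the classic members, were low at 2.12 and 1.22 CPM and at 1.75 and 1.29 CPM. CTGF and CYR61, matricellular proteins that are also targets of YAP and TEAD, went from 42.3, 58.3 and 62.9 CPM to 65.7, 83.8 and 104 CPM (log2 0.60, adjusted p = 0.00068) and from 25.8, 39.8 and 46.5 CPM to 50.4, 64.3 and 69.1 CPM (log2 0.73, adjusted p = 0.00442). Neither overlapped between the windows, and the call of CYR61 was lost without 150 min replicate 1 (adjusted p = 0.0576). ANKRD1, another YAP target, went from 3.4, 6.31 and 9.94 CPM to 14.2, 27.8 and 52.3 CPM, without overlap (log2 2.18, SE 0.23, adjusted p = 7.66e-09).

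Of 20 tested YAP-TEAD targets ANKRD1, CTGF and CYR61 were higher and AMOTL1, which holds YAP in the cytoplasm, was lower, beside 0.901% and 0.278% of all genes. AMOTL1 was at 62.2 and 43.3 CPM (log2 -0.52, adjusted p = 0.0156), and lost the call in 11 of 28 settings (adjusted p of up to 0.361). ATF3, a stress-response factor, went from 34.7 to 58.1 CPM (log2 0.77, adjusted p = 0.000781). KLF6 (117 and 160 CPM, adjusted p = 0.00718) lost its call in 8 settings, 5 of them with a single library left out (adjusted p of up to 0.343). IER5, outside the naming rule and picked after its values were seen, was at 73.8 and 105 CPM (adjusted p = 0.0101). It lost the call without 180 min replicate 1 (adjusted p = 0.073) and in 8 other settings, 4 of which left out another single library. The highest adjusted p was 0.32, without both 120 min libraries. Without 180 min replicate 1 the list of immediate early genes had 3 members higher in place of 5.

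Some HOX genes were called lower, but the calls were not stable. Of 20 tested HOX genes 5 were lower, among them HOXB1, HOXB4, HOXB5 and HOXB6, and 0 higher, beside 0.278% lower and 0.901% higher of all genes, and the list median was -0.47. HOXB1, the first gene of its cluster to be switched on, went from 6.75, 12.3 and 24.9 CPM to 0.835, 4.02 and 8.1 CPM (log2 -1.64, SE 0.42, adjusted p = 0.0356). HOXB6 had a log2 fold change of -2.08 (adjusted p = 0.0458), HOXB4 of -1.40 (adjusted p = 0.039) and HOXB5 of -1.24 (adjusted p = 0.0346). Each of these 4 lost its call in 14 to 19 of 28 settings, by leaving out any of 8 to 11 single libraries among others, with an adjusted p of up to 0.505. Without 180 min replicate 1, 1 HOX gene was called lower, and without 240 min replicate 1 there was 0.

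Other large and stable changes lay outside these lists. SEMA4D, a semaphorin, went from 38.7, 52.7 and 79.8 CPM to 12.2, 22.2 and 27.7 CPM, without overlap (log2 -1.44, SE 0.21, adjusted p = 5.93e-06). LMO2, a cofactor of blood and endothelial transcription, went from 11.2, 18.8 and 27.6 CPM to 3.45, 5.0 and 6.95 CPM, without overlap (log2 -1.94, SE 0.34, adjusted p = 0.00033). It was the 1 called gene of 7 tested endothelial and blood markers. Their summed CPM, LMO2 included, was 40.3 to 56.7 and then 27.8 to 38.3 (exact permutation p = 0.00216, adjusted 0.0184), and without LMO2 it was 23.5 to 38.0 and 22.4 to 33.1 (exact permutation p = 0.634). KRT19, a keratin, went from 281, 379 and 527 CPM to 570, 672 and 787 CPM, without overlap (log2 0.79, SE 0.11, adjusted p = 1.35e-06). ANGPT2, an angiopoietin, went from 1.3, 3.3 and 5.13 CPM to 6.28, 10.1 and 12.0 CPM, without overlap (log2 1.73, SE 0.28, adjusted p = 8.14e-05). CFC1B, a nodal coreceptor, had a log2 fold change of 2.52 (adjusted p = 0.000192), but it has a near-identical copy, CFC1, and reads could have been split between them. FAM134B (log2 2.21, adjusted p = 0.000368) and RTN4R (log2 1.58, adjusted p = 0.000326) were also higher, from means of 2.12 and 6.06 CPM.

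Several large programs gave no call by edgeR's test. By the same test 1198 of all 13653 genes had an unadjusted p under 0.05, in either direction. In BMP and TGF-beta targets 0 of 22 genes were called (3 at an unadjusted p under 0.05, 1 by DESeq2 and 0 by limma on log2(TPM + 1)). Retinoic acid genes gave 0 of 19, G1/S and replication genes 0 of 27 and both gave 0 also at an unadjusted p under 0.05 and by DESeq2 and limma. G2/M genes gave 0 of 27, although 7 were higher at an unadjusted p under 0.05, and DESeq2 called 1 and limma 0. The cytosolic ribosomal proteins gave 0 of 77 (3 lower at an unadjusted p, 0 by DESeq2 and limma), and their share of all counts was 6.31 to 6.80% and 5.54 to 6.69% in the 2 windows. The log2 fold change was positive for 8 of these 77 genes (median -0.09) and for 21 of the 27 G2/M genes (median 0.11). Over all genes tested it was positive for 6783 of 13653. These leanings were small and were not tested. The proto-oncogene MYC was 7.42 to 9.86 CPM and 11.0 to 17.4 CPM, without overlap, but did not pass (log2 0.76, adjusted p = 0.105).

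**Figure D4:**
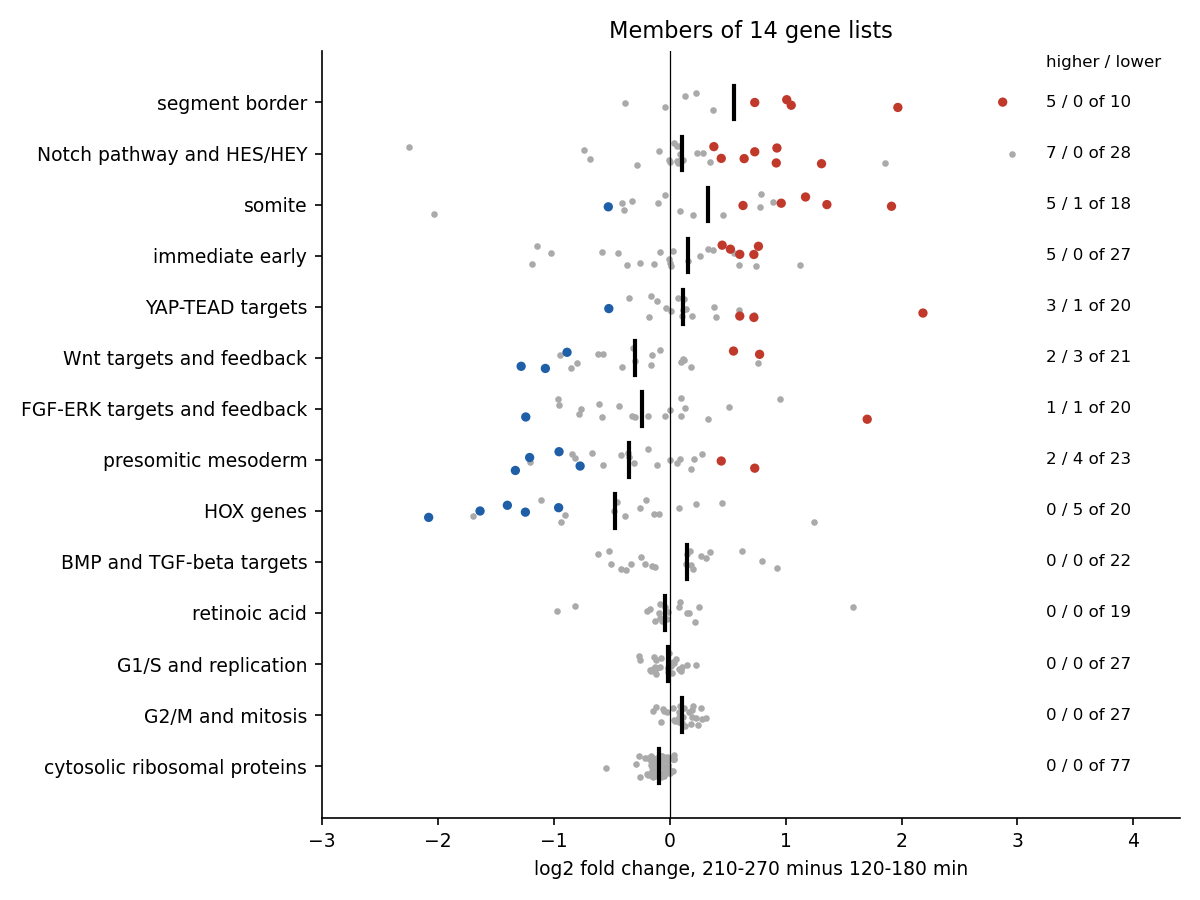
Each point is a tested gene of 1 of 14 lists, placed by its log2 fold change (210-270 minus 120-180 min). Red points are called higher, blue lower and grey not called, black bars are list medians, and the numbers at the right give genes called higher and lower of those tested; points are spread vertically only for visibility, and 1 BMP and TGF-beta target lies beyond the axis.

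The step from 180 to 210 min was the most frequent place of the largest change, though not for most of the called genes. The largest step between neighbouring times, on log2(CPM + 1) of the time means, lay between 180 and 210 min for 58 and between 150 and 180 min for 41 of the 123 higher genes. For the 38 lower genes it lay between 180 and 210 min for 16 and between 210 and 240 min for 12. Since the comparison itself favours genes that move near the middle, these counts are a description. A test of differences among the 3 times inside each window called 33 genes (0.242% of all tested), and 11 of them were also called between the windows. These were RIPPLY2, MEOX1, DUSP5, TCF15, HEY1, PCDH8, SNAI2, RAP1GAP2, RSPO3, CDH11 and PLXNA2. RSPO3 went down inside the early window from 406 to 241 CPM, and DUSP5 up inside the late window from 126 to 220 CPM. Of the 33 genes 8 were highest at 180 min, and in replicate 1 of that time they lay above every other library of the window, as with ORC4 at 434 CPM against 116 CPM in replicate 2. Without 180 min replicate 1, 20 genes were called.

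The step was small beside those before and after it. The same fit called 859 genes higher (6.29%) and 451 lower (3.3%) at 120-180 against 30-90 min, and 635 higher (4.65%) and 944 lower (6.91%) at 300-360 against 210-270 min. Each of these shares a window with the comparison above, so only their own values are given. Among the genes named, PCDH8 had a log2 fold change of 1.38 in the step before, 1.01 here and 1.68 in the step after, and reached 293 CPM at 300-360 min. T changed by -1.21, -1.33 and -1.23, IL17RD by -1.10, -1.24 and -1.05. HEY1 changed by 2.55, 1.31 and 0.30 and DLL1 by 1.39, 0.45 and 0.25.

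Whether a window lay off the mean of the windows on either side was tested on the log2 scale. A gene called so need not have turned. HEY1, for example, rose through 41.3, 95.7 and 120 CPM from 120-180 to 300-360 min. At 210-270 min, HEY1 and NR2F2 were called as lying above that mean (0.0146%) and TBX3 below it (0.00732%), and 1270 genes had an unadjusted p under 0.05. NR2F2, a nuclear receptor of mesenchyme, was at 74.2, 68.1 and 19 CPM in the windows from 120-180 to 300-360 min. At 120-180 min, 98 genes lay above (0.718%) and 43 below (0.315%). DUSP5, SOX9 and FOXC1 were among those below. DUSP5 was at 55.7, 53.1 and 168 CPM from 30-90 to 210-270 min, SOX9 at 27.7, 13.6 and 33.7 CPM and FOXC1 at 240, 119 and 184 CPM. DKK1 and AXIN2, the Wnt feedback genes, were below as well. Without 180 min replicate 1, 14 genes lay above and 20 below at 120-180 min, and 17 above and 4 below at 210-270 min. Over all settings these counts moved from 0 to 96 for genes above the mean at 210-270 min and from 5 to 213 at 120-180 min.

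The daily libraries of the series, 3 from Day2 (presomitic mesoderm) and 3 from Day3 (somite), share no sample with the course, and this comparison was added after the course results were seen. Of the 123 higher genes 120 were tested there, and 65 of them (54.2%) were higher at Day3 than at Day2 and 6 lower (5.0%). Of the 38 lower genes 37 were tested, and 23 (62.2%) were lower at Day3 and 1 higher. Over all 12765 genes tested in the daily libraries, 11.6% were higher and 11.0% lower. With single Day2 or Day3 libraries left out, the 65 became 52 to 67 and the 23 became 22 to 24. The shared genes were 4.38% of all genes higher at Day3 and 1.63% of those lower.

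MEOX1 was at 0.118 CPM on Day2 and 170 CPM on Day3 (log2 10.34, adjusted p = 2.72e-09), and TCF15 at 2.42 and 308 CPM (log2 7.05, adjusted p = 9.76e-07). T was at 61.3 and 0.765 CPM (log2 -6.40, adjusted p = 1.21e-07), and WNT5B at 139 and 1.64 CPM (log2 -6.40, adjusted p = 1.59e-05). Several border and Notch genes that rose in the course were not called between the days. PCDH8 was at 34.0 and 32.5 CPM (adjusted p = 0.933), HEYL at 3.62 and 3.33 CPM (adjusted p = 0.956), LFNG at 71.9 and 56.0 CPM (adjusted p = 0.377) and JAG1 at 58.6 and 77.3 CPM (adjusted p = 0.275). DLL1 (59.6 and 204 CPM, adjusted p = 0.0394) and SNAI2 (35.4 and 155 CPM, adjusted p = 0.00496) were called higher at Day3. CDH11, lower in the course, had a log2 fold change of 0.02 between the days (adjusted p = 0.967). MESP2 and RIPPLY2 did not pass the filter of the daily test.

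The 6 genes that rose in the course and were lower at Day3 were DUSP5, FGF4, SOX9, AXIN2, MEST and C3orf58, the last 2 named after their values were seen. DUSP5 was at 26.4 CPM on Day2 and 12.0 CPM on Day3 (log2 -1.14, adjusted p = 0.0269), against 53.1 and 168 CPM in the 2 windows. FGF4 was at 1.41 and 0.109 CPM (adjusted p = 0.0392), close to the level of 3 counts. SOX9 was at 28.6 and 12.5 CPM (log2 -1.19, adjusted p = 0.0286) and AXIN2 at 92.1 and 36.7 CPM (log2 -1.33, adjusted p = 0.00159). The gene lower in the course and higher at Day3 was C19orf48, also named after its values were seen.

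**Figure D5:**
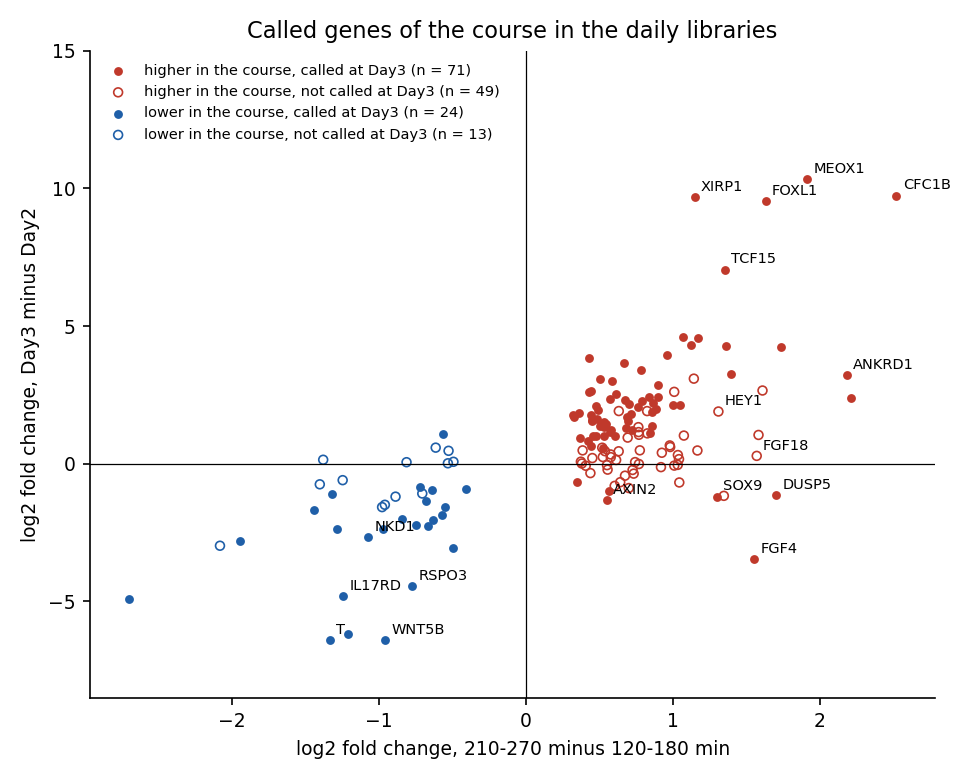
Each point is a gene called in the course, placed by its log2 fold change between the windows and by its log2 fold change from Day2 to Day3 in separate libraries; red is higher and blue lower in the course, and filled points passed the test between the days. Most filled points lie at the upper right (65 genes) or lower left (23 genes), and DUSP5, FGF4, SOX9 and AXIN2 lie at the lower right.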

How the data were processed

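RNA-seq libraries were made from total RNA by LM-seq, per the labels' protocols. The authors deposited expected counts, estimates that are not always whole numbers, and TPM values that they had rescaled, for 19084 genes without mitochondrial ones. These units come from the names of the deposited tables and were checked against the values. The aligner was Bowtie 0.12.2, per the submitters' processing notes, which name the human build hg19 and also mm8. Neither the counting program nor the use of strand is stated in the sources used here, so reads of overlapping genes cannot be told apart. Expected counts were rounded and fitted with edgeR 4.0.16 (TMM, filterByExpr, quasi-likelihood F test, Benjamini-Hochberg at 0.05) in R 4.3.3, over 46 course libraries with 1 coefficient for each of 23 times. Windows were compared as means of 3 coefficients. CPM use TMM-scaled library sizes, except that marker sums use the plain totals, SE is the log2 fold change divided by the root of F, and depth is given in the report. Day3 was compared with Day2 in the same way over 12 daily libraries.

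Alternatives were DESeq2 1.42.0, limma 3.58.1 on log2 TPM, other filters, models and pseudocounts (1 and 0.1), and leaving out each library or time. The fit was also run on counts simulated with its own estimates of spread. In these, 200 genes at 5 CPM or more changed 2-fold at 210-270 min and all other levels were flat over time. It recovered 158 of the 200 (79%) and made 4 false calls among 162. With flat levels this run cannot check the effect of other changes along the course. Replicate libraries of 1 time correlated at r 0.936 to 0.964 across genes, and their counts differed with chi-square over degrees of freedom of 4.03 to 8.23, so no 2 were duplicates. Named genes are 42 markers and the 12 largest rises and 12 largest falls. These changes were taken among called genes at 5 CPM or more with the same direction at all 3 matched times. Up to 4 called members of each of 41 gene lists were also named. So were up to 5 genes each called above or below the mean of the neighbouring windows, at either window. The windows, the lists and the markers were chosen with earlier results of these data known. Library measures were compared by exact permutation of the 12 libraries, which takes the 2 replicates of a time as independent units. Some results are not reported here.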

Additional observations from a re-analysis of the deposited data

Results flagged for a closer look

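Among 158 sets of 6 libraries looked at (each called named gene and library measure in each window), 8 had a library far from the other 5, 5.06% of them, and chance alone gives about 1 in 20. In the later window they were the 119 CPM of HEY1 in 270 min replicate 2 (others 88.2 to 93.9), the 21.7 CPM of FAM134B in 270 min replicate 1 (others 5.26 to 10.4) and the total of 4690000 counts in 210 min replicate 1 (others 3170000 to 3690000). In the earlier window they were the 11.2 CPM of MESP2 and the 21.2 CPM of C19orf24 in 180 min replicate 1 (others 0.323 to 3.86 and 9.37 to 13.7). They were also the 167 CPM of FOXC1 and the 5.97 CPM of CFC1B in 180 min replicate 2 (others 98.2 to 117 and 0 to 2.08) and the 5.93 CPM of FAM134B in 150 min replicate 1 (others 0.34 to 2.24).

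The step from 120-180 to 210-270 min differed from a neighbouring step for 12 of the 62 called named genes. This was tested as the distance of the middle window from the mean of the windows beside it, on the log2 scale. Of all genes tested, 0.718% lay above and 0.315% below that mean at 120-180 min, and 0.0146% and 0.00732% at 210-270 min. Some of the 12 were named because of this test, and all were called on windows that enter it, so their number is a description. For HEY1 the distance was 0.50 at 210-270 min (adjusted p = 0.0431) and 0.62 at 120-180 min (adjusted p = 0.00189). At 120-180 min DLL1 (0.47, adjusted p = 6.2e-05), NRARP (0.44, adjusted p = 0.0393), RHOB (0.60, adjusted p = 0.000606) and PPP1R10 (0.64, adjusted p = 0.000571) lay above the mean of their neighbours. DUSP5 (-0.92, adjusted p = 4.98e-07), FOXC1 (-0.80, adjusted p = 1.04e-05), SOX9 (-1.09, adjusted p = 3.36e-05), DKK1 (-1.01, adjusted p = 0.00206), AXIN2 (-0.52, adjusted p = 0.0101), RTN4R (-0.99, adjusted p = 0.0405) and LFNG (-0.40, adjusted p = 0.0418) lay below it. The calls between the windows were lost for RHOB in 5 of 28 settings, among them without 240 min replicate 2 (adjusted p = 0.0609, up to 0.261 over the settings), for PPP1R10 in 2, without both libraries of 120 or 270 min (0.0568 and 0.154), and for C19orf24 in 9, 5 of which left out a single library (up to 0.185 over the settings).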

How the results depend on the processing

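Across 62 called named genes and 28 settings, 1461 of 1736 values kept their direction and call, 275 kept the direction without the call and 0 reversed. DESeq2 and the fit with the replicate block kept all 62 calls. The numbers of the replicates did not pair the libraries (r of replicate differences -0.0641 to 0.0606 over 15 pairs of times), and with the replicate block 123 genes were higher and 38 lower. Leaving out 1 library gave 84 to 140 higher and 23 to 36 lower genes. Genes higher numbered 100 when the 12 libraries were fitted alone and 69 when they also had 1 coefficient per window, 63 and 76 without the 120 or 150 min libraries and 34 at 2-fold. Genes lower numbered 60 with no filter, 23 on log2(TPM + 0.1), 12, 25, 23 and 16 without 120, 150, 240 or 270 min and 14 at 2-fold. Genes above their neighbours at 210-270 min numbered 2, with 92 when only the windows compared were fitted, 96 with no filter, 27 by DESeq2, 1 with the replicate block, on log2(TPM + 1) and on log2(TPM + 0.1), 0 at 2-fold and 0 to 23 with 1 library left out. Genes below numbered 1, with 16, 34, 13, 0 with the block, 3 on log2(TPM + 1), 0 at 2-fold and 0 to 7. At 120-180 min genes above numbered 98, with 213, 209 and 162 in the first 3 of these settings, 27 and 22 on the log2 TPM scales, 5 at 2-fold and 7 to 179 with 1 library left out. Genes below numbered 43, with 77, 85, 79, 9 at 2-fold and 16 to 97. Genes varying inside the windows numbered 33, with 208 with no filter, 6 and 13 on the log2 TPM scales and 20 to 50. The step had the fewest genes higher without 120 min replicate 2, the fewest lower without 120 min replicate 1 and the most of both without 180 min replicate 2. Genes off the mean of their neighbours at 120-180 min were fewest without 120 min replicate 2 and most without 180 min replicate 2. Those at 210-270 min were 0 without either 210 min library and most without 240 min replicate 2, as was variation inside the windows. Over 17 library measures neither the neural nor the mesendoderm sum passed after adjustment (0.0955 and 0.209). Their unadjusted exact permutation p-values crossed 0.05 between CPM and TPM, from 0.0281 (difference 407.5) to 0.18 (118.6) and from 0.0736 (150) to 0.039 (98.25). Added after seeing the data, the sums without their called gene differed by 13.11 CPM for neural crest (exact permutation p = 0.0952) and by -1.345 for endothelium and blood (exact permutation p = 0.634). For sclerotome and myotome the difference was 34.85 CPM (exact permutation p = 0.0108). These p-values are not adjusted. The causes were not tested. Depth near 3 M counts limits genes under about 5 CPM.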
